A study of Mus musculus with 13 samples.

Results

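The genes described here are 40 interferon-stimulated genes (ISGs) outside the Ifit, Oas, guanylate-binding GTPase, Schlafen and nucleic acid sensor families, followed in CD45- thymic stromal cells before and after sublethal total body irradiation (TBI). They were chosen by symbol as genes known to respond to interferon, with earlier results of these same libraries known, and no threshold on a measured value was applied. All 40 symbols matched 1 identifier among the 53379 genes of the count table, and all 40 were among the 19984 genes with enough counts to be tested. They fall into 6 groups by role: 5 transcription factors and signalling partners, 6 components of the ISG15 system, 10 antiviral effectors, 5 genes for ADP-ribosyltransferases and their partner DTX3L, 7 nuclear body, PHD finger and TRIM proteins, and 7 other induced genes.

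The stromal cells came from the thymus of wild-type C57BL/6 mice aged 2 months, and were profiled by bulk poly(A) RNA-seq. The steady-state group (4 libraries) is labelled untreated, and its column names give it as PBS controls. The other groups (3 libraries each) were taken 1, 4 and 7 days after TBI. The study's methods call the bulk libraries biological replicates, and the labels do not tie each one to a mouse, so p-values measure the spread between these libraries.

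Interferons are secreted proteins that cells make on sensing viral or self nucleic acids. Type I and type III interferons signal through receptor-bound Janus kinases to ISGF3, a complex with STAT2 and IRF9 among its subunits that binds interferon-stimulated response elements in the promoters of ISGs. The products of these genes block viral entry and replication, amplify interferon production, or, as with USP18, shut the signal off.

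Total counts per library ran from 15721866 to 52056896 with a median of 44078906, and levels are given below as CPM, that is, counts scaled to a common library total after TMM normalization. Values of the steady-state libraries are listed throughout in the order PBS day 1 replicate 2, PBS day 4 replicate 2, PBS day 7 replicate 1 and PBS day 7 replicate 2, and those of the other groups in the order of replicates 1, 2 and 3. Marker genes of the 3 main stromal lineages were measured in every library, with Pdgfra of fibroblasts between 616 and 1282 CPM, Pecam1 of endothelial cells between 199 and 432 CPM and Epcam of epithelial cells between 14 and 155 CPM. RNA of other cells was also present and differed between groups: the summed level of 14 thymocyte markers was 257 to 811 CPM at steady state, 119.8 to 153 CPM at day 1, 25.6 to 41.3 CPM at day 4 and 231 to 5311 CPM at day 7. In bulk samples, fewer cells of a type and less RNA per cell cannot be told apart.

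Replicate 1 of day 1 stood apart from replicates 2 and 3 in a way that touches the results below. Among 11459 genes with a mean above 5 CPM, 24.3% were at least 2-fold lower in replicate 1 than in the mean of the other two, and the same genes tended to be lower in replicates 2 and 3 of day 4 than in replicate 1 of day 4 (Pearson r = 0.91 across genes, which are not independent replicates). Column names carry a tag that divides the libraries of days 1 and 4 in the same way: it begins with kk in 3 libraries (PBS day 7 replicate 2, day 1 replicate 1 and day 7 replicate 3), with k3 in 5 (PBS day 4 replicate 2, day 4 replicates 2 and 3, and day 7 replicates 1 and 2) and with neither in the other 5. What the tags stand for is not given in the sources used here.

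Promoters of 4 members are shown because these genes had the largest day 1 changes among the members with a match to the response element searched for, namely GAAA, 2 bases of any kind, and GAAA on either strand within the 250 bases before the gene start. Sequences are from RefSeq on GRCm38.p6, written 5′ to 3′ on the strand of the gene (minus for all 4) and ending at the base before the RefSeq start of the gene, from which distances are counted, with the matches in capitals. For Phf11b and Bst2 this start differs from the end of the gene in the GENCODE coordinates given further on. They lie at chr14:59297523-59297772 for Phf11a, chr14:59341331-59341580 for Phf11b, chr4:156200819-156201068 for Isg15 and chr8:71537473-71537722 for Bst2.
Phf11a: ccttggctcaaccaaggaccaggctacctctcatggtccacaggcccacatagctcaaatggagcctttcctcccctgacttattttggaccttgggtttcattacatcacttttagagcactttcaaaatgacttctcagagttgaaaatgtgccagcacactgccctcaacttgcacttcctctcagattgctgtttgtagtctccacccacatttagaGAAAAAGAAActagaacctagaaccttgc
Phf11b: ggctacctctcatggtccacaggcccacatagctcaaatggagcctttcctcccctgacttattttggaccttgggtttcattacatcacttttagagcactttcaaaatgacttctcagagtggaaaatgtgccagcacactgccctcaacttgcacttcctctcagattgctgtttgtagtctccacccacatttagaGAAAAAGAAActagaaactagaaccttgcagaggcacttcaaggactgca
Isg15: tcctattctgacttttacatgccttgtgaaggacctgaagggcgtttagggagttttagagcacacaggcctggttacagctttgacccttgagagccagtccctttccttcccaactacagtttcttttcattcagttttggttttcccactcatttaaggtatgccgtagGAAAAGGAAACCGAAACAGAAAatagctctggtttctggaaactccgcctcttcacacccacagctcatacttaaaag
Bst2: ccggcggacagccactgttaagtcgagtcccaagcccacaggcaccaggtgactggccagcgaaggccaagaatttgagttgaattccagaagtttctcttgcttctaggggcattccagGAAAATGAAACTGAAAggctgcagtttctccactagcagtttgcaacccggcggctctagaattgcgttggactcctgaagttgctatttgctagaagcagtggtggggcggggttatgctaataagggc
Phf11a and Phf11b each held 1 match, with 19 and 40 bases between it and the start. Isg15 held 3 overlapping matches with 68, 62 and 56 bases to the start, and Bst2 held 2 overlapping matches with 120 and 114 bases to the start. Promoter sequence was available for 31 of the 40 members, and 8 of these 31 (25.8%) held a match, against 3.46% of the 27025 genes with a promoter in the table and 9 of 12 (75.0%) in the Ifit and Oas families. The other members with a match were Stat2, Rsad2, Ddx60 and Trim30a. The log2 fold change at day 1 had a median of 2.7 over the 8 members with a match (1.63 to 5.31) and of 1.69 over the 23 without one (-0.57 to 3.32). A second element of interferon-responsive promoters, TTC, 3 bases of any kind, and GAA, was held by 2 of 31 members (6.45%) and by 8.13% of all genes. A match describes these letters only and is not a measured binding site.

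At day 1 after TBI, the members were higher than at steady state as a group. Their summed level was 4444, 4215, 4112 and 3994 CPM in the 4 steady-state libraries and 23138, 13067 and 11909 CPM in the 3 libraries of day 1. It was 4459, 5097 and 4616 CPM at day 4 and 4171, 3438 and 3798 CPM at day 7. The lowest day 1 library thus lay above every library of the other 3 groups, and the libraries of day 4 lay just above the highest of steady state. Abundant members weigh most in this sum. Means at steady state and day 4 were 704 and 1086 CPM for Ifitm3 and 466 and 815 CPM for Lgals3bp, and fell from 625 to 197 CPM for Ube2l6. At day 1, 35 members were called higher than at steady state (adjusted p of at most 0.05, edgeR quasi-likelihood test with Benjamini-Hochberg adjustment, background 1.68% of all genes tested), and 0 were called lower (background 0.671%), while DESeq2 called 36 higher (background 4.23%) and 0 lower (background 2.69%). All 3 libraries of day 1 lay above all 4 of steady state for 37 members, as they did for 7.25% of all genes. The median log2 fold change was 2.07 (-0.57 to 5.31), beside -0.10 over all genes. The members were chosen as ISGs with this response known, so these day 1 figures describe the genes and are no test of them, and no p-values are printed for day 1.

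**Figure D1:**
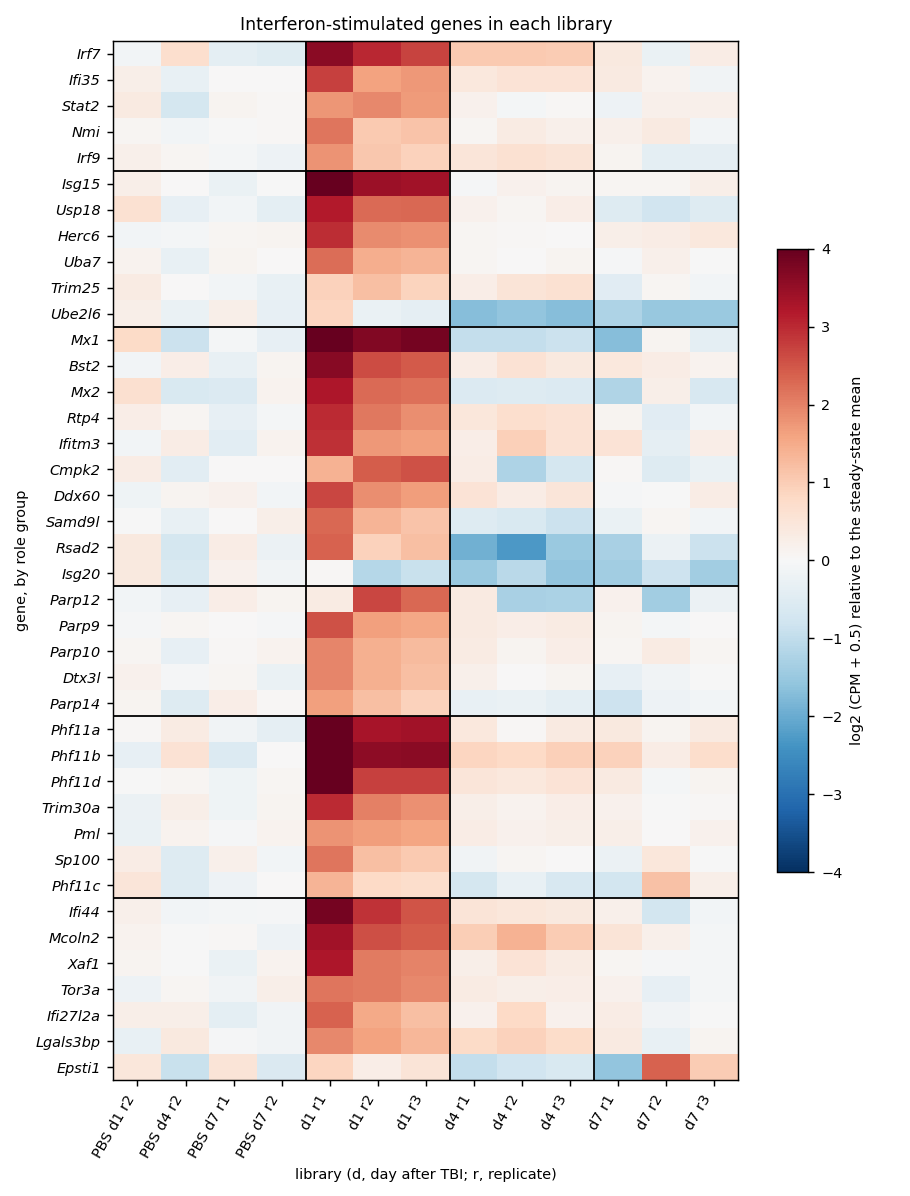
Level of each of the 40 members (rows, grouped by role and ordered by their change at day 1) in each of the 13 libraries (columns), as log2 of CPM + 0.5 relative to the steady-state mean, with the colour scale clipped at -4 and 4. For 37 members the 3 columns of day 1 are all redder than every steady-state column, replicate 1 is the darkest of them for most genes, and Ube2l6, Isg20, Epsti1 and Parp12 follow other patterns.

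All 5 transcription factors and signalling partners were called higher at day 1, with log2 fold changes of 1.33 to 3.17. Irf7 (ENSMUSG00000025498, chr7:141262706-141266481, minus strand), which drives the transcription of interferon genes themselves, was at 131, 228, 109 and 101 CPM at steady state and at 1759, 1149 and 924 CPM at day 1. It was then at 293, 297 and 287 CPM at day 4 and at 188, 118 and 176 CPM at day 7. Every library of day 1 was therefore at least 4-fold above the highest of steady state, the 3 libraries of day 4 were close to each other and above all of steady state, and those of day 7 overlapped it. The log2 fold changes against steady state were 3.17 ± 0.32 (SE) at day 1, 1.04 ± 0.31 at day 4 and 0.18 ± 0.31 at day 7, with edgeR adjusted p-values of 0.206 at day 4 and 0.931 at day 7.

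Ifi35 (ENSMUSG00000010358, chr11:101448407-101458698, plus strand), the binding partner of NMI, was at 65.7, 44.9, 55.6 and 55.7 CPM at steady state and at 372, 169.8 and 187 CPM at day 1. At days 4 and 7 it was at 74, 81.8 and 81.9 CPM and 71, 60.6 and 49.9 CPM. Day 1 lay well clear of the other groups, day 4 lay above steady state without overlap, and day 7 overlapped it (log2 fold changes 2.13 ± 0.27, 0.51 ± 0.26 and 0.13 ± 0.26). Of its exonic bases 16.8% overlap the gene Gm11626, so some reads cannot be placed with 1 of these genes. The DNA-binding and activating subunits of ISGF3 changed less than Irf7: Irf9 had means of 108 ± 12.8 CPM (SD, n = 4) at steady state and 272 ± 92.3 CPM (n = 3) at day 1, and Stat2 had 86.8 ± 24.5 CPM and 304 ± 24.5 CPM. Nmi, an adaptor that binds STAT proteins, had 37.1 ± 2.27 CPM and 108 ± 48.9 CPM.

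ISG15 is a ubiquitin-like protein that is attached to other proteins by a cascade of an activating enzyme (UBA7), a conjugating enzyme (UBE2L6) and ligases (HERC6 in the mouse, and TRIM25), and is removed by the protease USP18. At day 1, 5 of these 6 genes were called higher and Ube2l6 was not. Isg15 (ENSMUSG00000035692, chr4:156199424-156200818, minus strand) was at 41.1, 35.4, 29.3 and 34.3 CPM at steady state and at 927, 379 and 367 CPM at day 1. It was at 34.1, 39.4 and 38.1 CPM at day 4 and at 37.4, 37.2 and 40.9 CPM at day 7. The day 1 libraries were all far above the rest, replicate 1 more so than the others, while day 4 and day 7 overlapped steady state. The log2 fold changes were 3.99 ± 0.31, 0.09 ± 0.29 (edgeR adjusted p = 0.91) and 0.14 ± 0.29 (adjusted p = 0.95).

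Usp18 (ENSMUSG00000030107, chr6:121245906-121270917, plus strand), which also blocks the type I interferon receptor, was at 125, 64.5, 75.1 and 62.8 CPM at steady state and at 739, 399.7 and 402 CPM at day 1. At day 4 it was at 92, 86 and 97.9 CPM, within the range of steady state, and at day 7 it was at 57.6, 48 and 57.2 CPM, below all 4 steady-state libraries. These gave log2 fold changes of 2.65 ± 0.29, 0.17 ± 0.28 and -0.59 ± 0.29, and the last did not pass the test (edgeR adjusted p = 0.4). Uba7 had means of 97.2 ± 13.1 CPM (SD, n = 4) at steady state and 324 ± 117 CPM (n = 3) at day 1, Herc6 had 23.3 ± 1.81 CPM and 118 ± 55.2 CPM, and Trim25 had 57.5 ± 10.7 CPM and 116 ± 13.9 CPM. Trim25, also a ligase in the RIG-I pathway, thus had the smallest change of the 5, at 1.01 ± 0.20 on the log2 scale.

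Ube2l6 (ENSMUSG00000027078, chr2:84798828-84810335, plus strand) followed a different course from the rest of its pathway. It was at 743, 517, 743 and 499 CPM at steady state and at 1125, 516 and 491 CPM at day 1. It was at 191, 207 and 193 CPM at day 4 and at 267, 216 and 222 CPM at day 7. Day 1 overlapped steady state, with only replicate 1 above it, while all libraries of days 4 and 7 were below both groups. The log2 fold changes were 0.18 ± 0.29 at day 1, -1.67 ± 0.30 at day 4 and -1.41 ± 0.30 at day 7. The change at day 4 passed the edgeR test (adjusted p = 0.0388) and that at day 7 did not (adjusted p = 0.117). The day 4 call was lost without any 1 of PBS day 1 replicate 2, PBS day 7 replicate 1, PBS day 7 replicate 2, day 4 replicates 1, 2 or 3, or day 7 replicates 2 or 3, in fits with a replicate block or with the tag family or a thymocyte score as a covariate, and with at least 10 counts required in every library. Over 21 alternatives it held in 9, with log2 fold changes of -1.76 to -1.46.

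**Figure D2:**
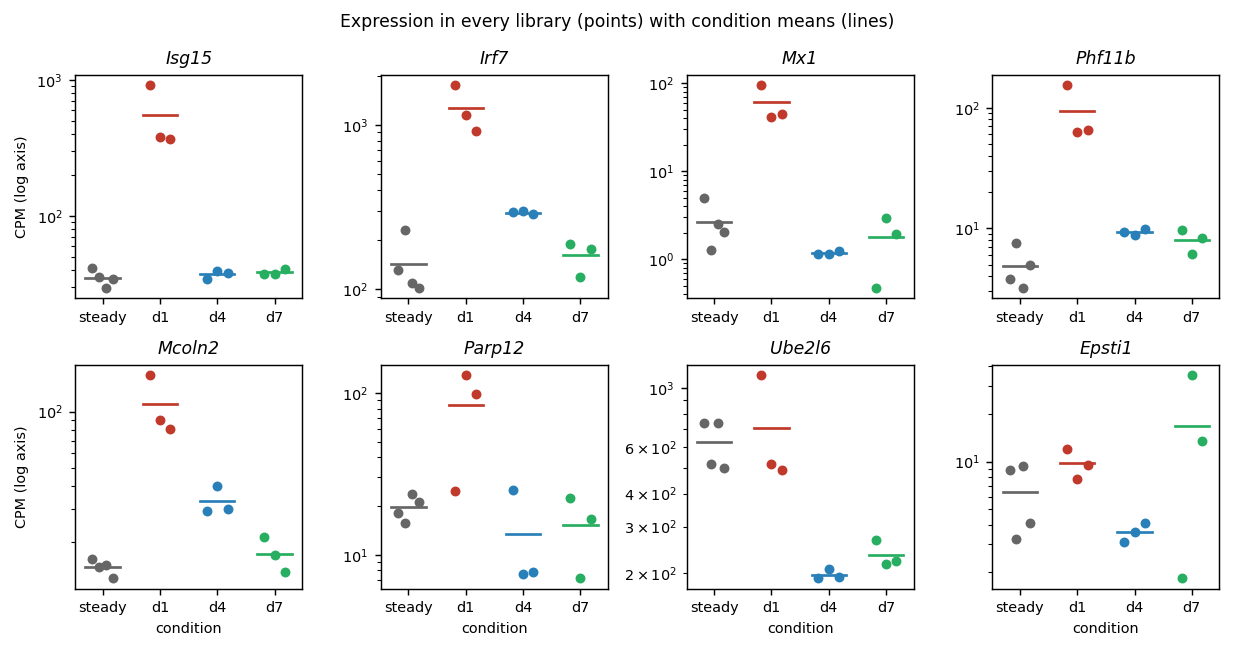
CPM on a log axis of 8 members in every library (points), with the mean of each group (lines), with the groups written as steady, d1, d4 and d7 on the horizontal axis. Isg15, Irf7, Mx1, Phf11b and Mcoln2 have all 3 day 1 libraries above every other library, Ube2l6 is low at days 4 and 7, replicate 1 of day 1 is low for Parp12, and Epsti1 is highest in replicate 2 of day 7.

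Of the 10 antiviral effectors, 9 were called higher at day 1, with log2 fold changes of 1.63 to 4.49, and Isg20 was not called. Mx1 (ENSMUSG00000000386, chr16:97447035-97462907, minus strand), a gene of the dynamin-like GTPase family, was at 4.93, 1.28, 2.52 and 2.03 CPM at steady state and at 96.1, 41.3 and 44.6 CPM at day 1. It was at 1.16, 1.14 and 1.26 CPM at day 4 and at 0.472, 2.93 and 1.93 CPM at day 7. The gene was nearly silent outside day 1, and its day 4 libraries lay just below all of steady state. Relative to steady state the log2 fold changes were 4.49 ± 0.58, -1.18 ± 0.58 (edgeR adjusted p = 0.4) and -0.61 ± 0.55 (adjusted p = 0.769).

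Bst2 (ENSMUSG00000046718, chr8:71534255-71537456, minus strand), the membrane protein tetherin that holds budding virions on the cell, was at 88.2, 115, 78.4 and 103 CPM at steady state and at 1202, 586 and 533 CPM at day 1. It was at 119, 144 and 126 CPM at day 4 and at 129.7, 118 and 105 CPM at day 7. Day 1 was clear of all other groups, day 4 lay just above steady state without overlap, and day 7 overlapped it (log2 fold changes 3.01 ± 0.28, 0.43 ± 0.27 and 0.29 ± 0.27). Ifitm3, which hinders fusion of viruses in endosomes, had means of 704 ± 144 CPM (SD, n = 4) at steady state and 3287 ± 1746 CPM (n = 3) at day 1. Per kilobase of exon it was the most abundant member in both groups, with means of 1039 and 4849 CPM per kb, and the next at day 1 were Bst2 with 857 and Isg15 with 737 CPM per kb.

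Rsad2, which encodes viperin and makes a chain-terminating nucleotide, and Cmpk2, a nucleotide kinase encoded beside it on chromosome 12, differed in their course. Rsad2 was at 249, 118, 237 and 161 CPM at steady state, 977, 363 and 442 CPM at day 1 and 50.1, 38.5 and 68.2 CPM at day 4. Its day 1 call held under 10 of 21 alternatives, with log2 fold changes of 1.08 (without day 1 replicate 1) to 2.19. It was lost without any 1 of PBS day 4 replicate 2, PBS day 7 replicates 1 or 2, day 1 replicates 1 or 3, day 4 replicates 2 or 3, or day 7 replicate 3, in fits of the libraries compared alone, and with a replicate block or the tag family as a covariate. The day 4 libraries were all below steady state, with a log2 fold change of -1.87 ± 0.41 that did not pass the edgeR test (adjusted p = 0.0899). Cmpk2 was at 72, 42.8, 58.2 and 59.4 CPM, 152, 315 and 339 CPM and 71.2, 24.3 and 35.2 CPM in the same groups. Here replicate 1 was the lowest library of day 1 and the highest of day 4, the reverse of most members at day 1. The helicase-like Ddx60, the antiviral factor Samd9l, the chaperone Rtp4 and the GTPase Mx2 had log2 fold changes at day 1 of 2.16 ± 0.25, 1.69 ± 0.26, 2.41 ± 0.27 and 2.83 ± 0.47.

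Isg20 (ENSMUSG00000039236, chr7:78913424-78920396, plus strand), an exonuclease that degrades RNA, had the lowest change of the 40 members at day 1. It was at 169.8, 83.7, 145 and 116 CPM at steady state and at 132, 58.6 and 69.7 CPM at day 1. It was at 46, 61.1 and 42.4 CPM at day 4 and at 48.7, 71.7 and 49.2 CPM at day 7. Day 1 overlapped steady state, and days 4 and 7 lay below it without overlap. Its log2 fold changes were -0.57 ± 0.32, -1.37 ± 0.32 (edgeR adjusted p = 0.116) and -1.18 ± 0.32 (adjusted p = 0.13), neither of the last 2 past the threshold.

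Markers of red cell precursors were also lower at days 4 and 7 than at steady state. The summed level of 6 erythroid markers was 3411, 1571, 3589.9 and 1879 CPM in the steady-state libraries, 997, 307 and 393 CPM at day 1, 14.3, 10.8 and 12.6 CPM at day 4 and 289, 846 and 505 CPM at day 7. Most of it was Alas2, the first enzyme of erythroid haem synthesis, at 1510.3 to 3471 CPM at steady state and 3.44 to 5.74 CPM at day 4. At day 1 the sum was below every steady-state library, while Ube2l6 and Isg20 overlapped steady state. The 2 steady-state libraries with the highest sums were also the highest for Ube2l6 and Isg20, as was replicate 1 among those of day 1. Neither order is particular to these genes. The same 2 steady-state libraries, whose tags begin with neither kk nor k3, were also highest for Rsad2 and Sp100, though not for Ifitm3. Replicate 1 was the highest of day 1 for 34 of the 38 members with a mean above 5 CPM. At day 7 the sum was 20-fold or more above day 4 in every library, and Ube2l6 was between 216 and 267 CPM. The part of these cells in the levels of Ube2l6 and Isg20 was not tested.

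**Figure D3:**
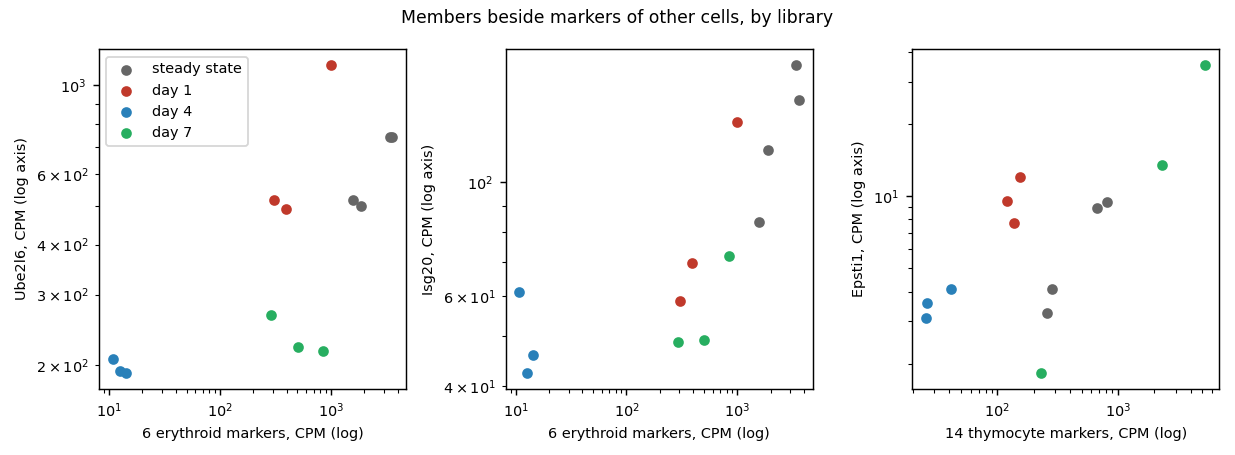
Level of Ube2l6 and Isg20 (CPM, log axes) against the summed level of 6 erythroid markers, and of Epsti1 against that of 14 thymocyte markers, 1 point per library coloured by group. The day 4 libraries are lowest for the marker sums, the highest steady-state libraries for erythroid markers are also highest for Ube2l6 and Isg20 within that group, and replicate 2 of day 7 is highest for both Epsti1 and the thymocyte sum.

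ADP-ribosyltransferases attach ADP-ribose to proteins, and PARP9 works as a pair with the ubiquitin ligase DTX3L. Of these 5 genes 4 were called higher at day 1, and the fifth, Parp12, had the largest log2 fold change but was not called. Parp12 (ENSMUSG00000038507, chr6:39086410-39118349, minus strand), which modifies proteins with single ADP-ribose units, was at 18, 15.6, 23.8 and 21.2 CPM at steady state and at 24.8, 129 and 97.9 CPM at day 1. It was at 25.1, 7.64 and 7.81 CPM at day 4 and at 22.3, 7.15 and 16.6 CPM at day 7. Replicate 1 of day 1 was barely above steady state while the other two were several-fold above it, and at day 4 replicates 2 and 3 were low and replicate 1 was not. This is the division between libraries described above, and Parp12 and Cmpk2 were the only members among the 38 with a mean above 5 CPM to be at least 2-fold lower in replicate 1 of day 1. Parp12 thus had log2 fold changes of 2.09 ± 0.55, -0.55 ± 0.56 and -0.36 ± 0.55.

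Parp9 (ENSMUSG00000022906, chr16:35938470-35972605, plus strand) was at 82, 88.8, 85.1 and 80.7 CPM at steady state and at 495, 263 and 247 CPM at day 1. It was at 108, 100.2 and 106 CPM at day 4 and at 91.2, 80.1 and 85.4 CPM at day 7. The steady-state libraries were close together, so that day 4 lay above them without overlap although its log2 fold change was only 0.32 ± 0.23 (edgeR adjusted p = 0.53), after 1.99 ± 0.23 at day 1. Dtx3l, encoded head to head with Parp9 and sharing 8.0% of its exonic bases with it, had means of 107 ± 13.3 CPM (SD, n = 4) at steady state and 314 ± 88.1 CPM (n = 3) at day 1. Parp10 had 54.8 ± 7.61 and 164 ± 43.6 CPM, and Parp14 had 83.5 ± 17.4 and 204 ± 53.4 CPM.

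Among the nuclear body, PHD finger and TRIM genes, 6 of 7 were called higher at day 1, and all 7 had every day 1 library above every steady-state library. The largest log2 fold change of any member was that of Phf11a (ENSMUSG00000044703, chr14:59276913-59297522, minus strand), a gene for a PHD finger protein in a cluster of 4 close copies on chromosome 14. It was at 0.241, 0.4, 0.151 and 0.0484 CPM at steady state and at 13.2, 6.5 and 6.74 CPM at day 1. It was at 0.452, 0.228 and 0.407 CPM at day 4 and at 0.431, 0.266 and 0.407 CPM at day 7. The gene was close to undetected outside day 1, with 1 count in its lowest library and 466 in its highest, so its fold change of 5.31 ± 0.54 on the log2 scale rests on few steady-state reads.

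Phf11b (ENSMUSG00000091649, chr14:59320964-59341351, minus strand) was at 3.79, 7.6, 3.18 and 4.99 CPM at steady state and at 155, 63.4 and 64.9 CPM at day 1. It was at 9.36, 8.85 and 9.94 CPM at day 4 and at 9.72, 6.08 and 8.35 CPM at day 7. Day 1 was clear of the rest, all of day 4 was above steady state, and day 7 overlapped it (log2 fold changes 4.27 ± 0.39, 0.94 ± 0.36 and 0.72 ± 0.36). Phf11d was the copy with the most reads per exonic length, at 43 ± 3.67 CPM (SD, n = 4) and 431 ± 246 CPM (n = 3), or 9.57 and 95.8 CPM per kb. Phf11c had the smallest log2 fold change of these copies at day 1, at 1.23 ± 0.53. It was at 1.97, 0.75, 1.05 and 1.31 CPM at steady state, 4.02, 2.55 and 2.41 CPM at day 1 and 0.554, 3.48 and 1.6 CPM at day 7. Reads were counted at the default settings of featureCounts, per the study's methods, which leave out reads that map to several places, so these values rest on reads placed at 1 copy and the split between copies is uncertain. The promoters of Phf11a and Phf11b shown above carry the same match within nearly the same surrounding letters.

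Pml and Sp100 encode proteins that organise nuclear bodies. Pml was at 85.2, 112, 98.7 and 112 CPM at steady state and at 353, 323 and 305 CPM at day 1, and Sp100 was at 185, 105, 175 and 138 CPM and 672, 346 and 314 CPM. The day 1 libraries were close together for Pml, whose log2 fold change of 1.68 ± 0.17 had the smallest SE of the 40 members, and were spread more widely for Sp100, with replicate 1 highest. Trim30a, a TRIM protein that restrains inflammatory signalling, had means of 51.2 ± 7.93 CPM (SD, n = 4) at steady state and 266 ± 121 CPM (n = 3) at day 1.

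Of the 7 other induced genes, 6 were called higher at day 1. Ifi44 (ENSMUSG00000028037, chr3:151730922-151749960, minus strand), an ISG that restrains virus replication, was at 56.1, 45.2, 45.7 and 47.5 CPM at steady state and at 704, 366 and 283 CPM at day 1. It was at 70.3, 67.1 and 64 CPM at day 4 and at 56.1, 29.2 and 44.9 CPM at day 7. All of day 1 and all of day 4 were above steady state, by very different amounts, and day 7 overlapped it (log2 fold changes 3.21 ± 0.31, 0.47 ± 0.29 and -0.16 ± 0.30).

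Mcoln2 (ENSMUSG00000011008, chr3:146149833-146195513, plus strand), a cation channel of recycling endosomes and lysosomes, was at 16.3, 14.7, 15.1 and 12.8 CPM at steady state and at 157, 90.4 and 80.6 CPM at day 1. It was at 29.4, 39.8 and 30.3 CPM at day 4 and at 21.2, 17 and 13.8 CPM at day 7. Its steady-state libraries were close together, and every day 4 library was above all of them, the largest log2 fold change of any member at day 4. The values were 2.89 ± 0.26, 1.17 ± 0.25 (edgeR adjusted p = 0.0863) and 0.23 ± 0.25 (adjusted p = 0.833). Lgals3bp, a secreted glycoprotein that binds galectin-3, had means of 466 ± 101 CPM (SD, n = 4) at steady state, 1458 ± 305 CPM (n = 3) at day 1 and 815 ± 54.6 CPM (n = 3) at day 4. Xaf1, which promotes cell death by binding XIAP, had a log2 fold change of 2.58 ± 0.28 at day 1, the torsin Tor3a of the endoplasmic reticulum had 2.05 ± 0.19, and Ifi27l2a had 1.79 ± 0.29.

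Epsti1 (ENSMUSG00000022014, chr14:77904239-78002657, plus strand), named for its induction in epithelial cells beside stroma, did not follow the group. It was at 8.9, 3.25, 9.45 and 4.12 CPM at steady state and at 12.1, 7.75 and 9.51 CPM at day 1. It was at 3.1, 3.6 and 4.09 CPM at day 4 and at 1.83, 35.4 and 13.5 CPM at day 7. The highest value was in replicate 2 of day 7, and the lowest was in replicate 1 of the same day. The log2 fold changes were 0.60 ± 0.66, -0.84 ± 0.68 (edgeR adjusted p = 0.583) and 1.39 ± 0.66 (adjusted p = 0.39). Thymocyte markers moved with it at day 7, where their summed level was 231, 5311 and 2312 CPM in replicates 1, 2 and 3, and in the steady-state libraries, where it was 668, 257, 811 and 284 CPM. At day 1 the sum was below that of steady state in every library and Epsti1 was not. Phf11c was likewise highest at day 7 in replicate 2. With a thymocyte score as a covariate, Epsti1 was called higher than steady state at days 1 and 4, with log2 fold changes of 2.42 and 2.77, and lower at day 7 than at day 4. The score did not overlap between these groups, at 3.86 to 5.38 at steady state, 2.7 to 2.98 at day 1 and 0.73 to 1.3 at day 4. The adjusted values are therefore extrapolations and not measured rises.

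**Figure D4:**
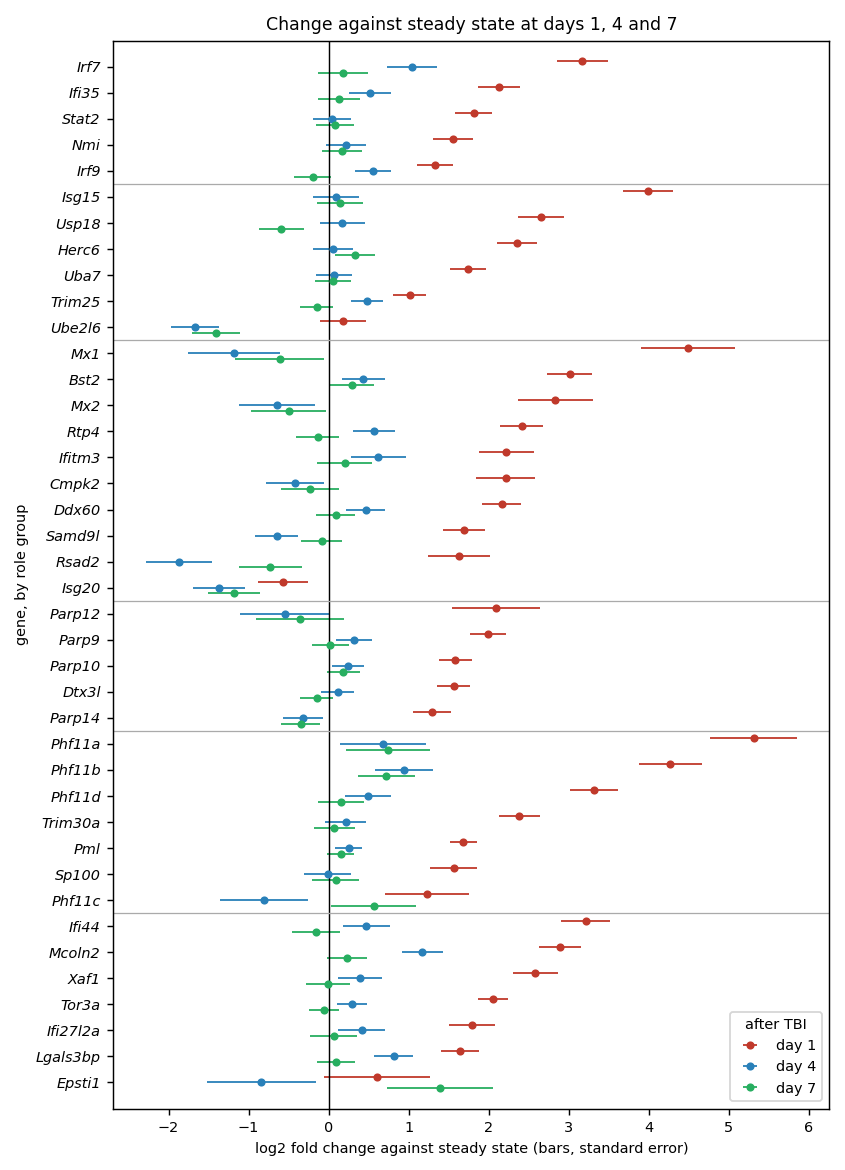
Log2 fold change against steady state (points) with its standard error (bars) for each of the 40 members on days 1, 4 and 7, grouped by role. The day 1 points range from -0.57 to 5.31 with a median of 2.07, and the medians at days 4 and 7 are 0.23 and 0.06.

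By day 4 most of the difference from steady state was gone. No member was called higher than steady state (background 0.05% of all genes), and 1 member, Ube2l6, was called lower (background 0.24%). With DESeq2 in place of edgeR, 3 members were called higher (Irf7, Lgals3bp and Mcoln2, background 1.35%) and 3 lower (Isg20, Rsad2 and Ube2l6, background 1.87%), and 11 members had an unadjusted edgeR p under 0.05 (background 13%). The median log2 fold change was 0.23 (-1.87 to 1.17), beside -0.13 over all genes. All 3 day 4 libraries lay above all 4 of steady state for 15 members, as for 6.44% of all genes, and below them for 5 members, as for 8.22% of all genes. The 15 were Irf7, Irf9, Ifi35, Bst2, Rtp4, Ddx60, Parp9, Pml, Phf11b, Phf11d, Ifi44, Xaf1, Lgals3bp, Mcoln2 and Tor3a, and the 5 were Ube2l6, Isg20, Mx1, Rsad2 and Samd9l. Day 4 was compared with the same steady-state libraries as day 1.

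At day 7, 0 members were called in either direction (background 0.005%), 2 members had an unadjusted edgeR p under 0.05 (background 13.5%), and DESeq2 called 2 members lower (Isg20 and Ube2l6, background 3.5%). The median log2 fold change was 0.06 (-1.41 to 1.39), beside 0.00 over all genes. All 3 day 7 libraries lay above steady state for 1 member, Herc6 (background 2.82%), and below it for 3 members, Isg20, Ube2l6 and Usp18 (background 4.67%). Between days 4 and 7, 0 members were called by edgeR (background 3.9% in either direction), 10 had an unadjusted p under 0.05 (background 18.7%), and DESeq2 called 5 (background 9.61%), with Epsti1 higher and Irf9, Lgals3bp, Mcoln2 and Trim25 lower at day 7. Against day 1, 31 members were called lower at day 4 (background 1.07%) and 37 were called lower at day 7 (background 4.45%). These comparisons share the day 1 libraries, whose values were known when the genes were chosen, and are given as a description. The count for day 4 against day 1 was 20 without replicate 3 of day 4.

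How much of the day 1 rise was left differed between members. For the 35 members called at day 1, the mean level at day 4 minus that at steady state was a median of 4.95% of the rise at day 1 (-34.6% to 38.6%), and at day 7 a median of 1.20% (-18.8% to 6.63%). At day 4 more than 10% of the rise was left in 10 members, most in Trim25 (38.6%), Lgals3bp (35.1%), Irf9 (30.8%) and Mcoln2 (19.5%), and 7 members were below their steady-state mean. At day 7 no member had more than 10% left. By role, the median left at day 4 was 12.7% for the 5 transcription factors and signalling partners, 10.1% for the 6 other induced genes, 6.08% for 4 ADP-ribosyltransferase genes, 4.18% for 6 nuclear body, PHD finger and TRIM genes, 1.98% for 5 genes of the ISG15 system and -2.59% for 9 antiviral effectors. Thus Irf7 kept 13.2% of its rise at day 4 and Isg15 kept 0.416%. These shares rest on means of 3 or 4 libraries and carry no test of the difference between members.

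The members were higher in replicate 1 of day 1 than in replicates 2 and 3 more often than other genes. It was the highest of the 3 day 1 libraries for 34 of the 38 members with a mean above 5 CPM (89.5%), and for 49.1% of all genes above that level. The median log2 ratio of replicate 1 to the mean of the other two was 0.99 for the members and 0.07 for all genes. Without replicate 1 of day 1, 33 members were called higher than steady state. Over 21 alternatives 30 of the 35 day 1 calls held in all, and the others were those of Irf9 (20 alternatives), Parp14, Sp100 and Trim25 (18 each) and Rsad2 (10). Those of Parp14 and Sp100 were lost without replicate 1 of day 1, and that of Trim25 without PBS day 7 replicate 2 or day 1 replicate 2. In libraries whose tag has neither beginning (2 of day 1, 2 of steady state), the members' median log2 ratio of means was 1.77. Over all genes it was -0.08. In the kk libraries (1 of each) the medians were 2.56 for the members and -0.01 for all genes. At day 4 the members' medians were 0.24 with neither beginning (1 and 2 libraries) and 0.25 with k3 (2 and 1). Over all genes they were -0.04 and -0.03. At day 7 the members' medians were 0.02 in the k3 libraries and 0.01 in the kk libraries, beside 0.06 and -0.01 over all genes. Ube2l6 was lower at day 4 in both families that could be compared, by log2 ratios of -1.96 and -1.37, and Mcoln2 was higher in both, by 0.88 and 1.22. Ube2l6 at day 1 had a log2 ratio of 1.17 in the kk libraries and of -0.56 in those with neither beginning.

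Other genes of the interferon pathway were compared at day 1 by lists. Among 10 inducing IRFs and adaptors, 1 was called higher, Tmem173, the gene for the adaptor STING, at 70.2 ± 11.3 CPM at steady state and 131 ± 33.6 CPM at day 1 (log2 fold change 0.90 ± 0.21). None of 7 negative regulators such as Socs1 was called by edgeR or DESeq2, and 0 had an unadjusted edgeR p under 0.05. By contrast 11 of 14 Ifit and Oas genes were called higher (14 by DESeq2), with a median log2 fold change of 3.26, led by Ifit3, at 69.4 ± 7.99 CPM at steady state and 1764 ± 881 CPM at day 1 (log2 fold change 4.67 ± 0.31), and its near copy Ifit3b, at 20.1 ± 3.57 CPM at steady state and 475 ± 240.1 CPM at day 1 (log2 fold change 4.56 ± 0.32).

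The interferon genes themselves had few reads in any group. Of 21 ligand genes only Ifnl2 and Ifnl3 passed the filter on low counts, and at day 1 against steady state 0 were called by edgeR or DESeq2 or had an unadjusted edgeR p under 0.05. Reads of all type I ligands together numbered 7, 4, 10 and 2 in the steady-state libraries and 6, 4 and 7 in those of day 1. They numbered 1, 1 and 10 at day 4 and 2, 3 and 1 at day 7. Ifnb1, the first type I interferon made by most cells, had 1 read in each day 1 library and 0 to 7 in those of steady state. A rise in type I ligand RNA at day 1 was therefore not detectable at this depth in these cells. Ifng, the type II interferon, had 0, 0, 6 and 4 reads at steady state and 17, 3 and 13 at day 1, and the type III interferon Ifnl3 had 21, 1, 0 and 0 reads and 8, 7 and 13. Its close copy Ifnl2 had 47, 6, 11 and 1 reads and 6, 2 and 14. Each of these 3 overlapped between the groups. Siglech, which marks plasmacytoid dendritic cells, a main source of type I interferon, was at 1.58 to 5.53 CPM at steady state and 0.198 to 0.65 CPM at day 1, and the summed level of 9 markers of these cells was 271 to 575 and 263 to 374 CPM. Abundant markers carry that sum. Of the 9 markers 7 had log2 fold changes below 0 and 2 above 0 (median -0.98, -5.42 to 0.55). Among them 1 was called lower (background 0.671%) and 0 higher, and 3 had an unadjusted edgeR p under 0.05.

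Markers of macrophages, B cells and neutrophils, which also express many ISGs, were compared at day 1 as well. The summed level of 10 macrophage markers was 74.8 to 99 CPM at steady state and 94.4 to 115 CPM at day 1, that of 6 B cell markers was 90.2 to 110.2 and 80.3 to 88.6 CPM, and that of 8 neutrophil markers was 5.13 to 31 and 18.8 to 43.1 CPM. Of the 10 macrophage markers 2 were called higher at day 1 and 0 lower (4 with an unadjusted edgeR p under 0.05), with a median log2 fold change of -0.11. The 2 were Fcgr1, an Fc receptor gene, at 0.132, 0.1, 0.043 and 0 CPM at steady state and 1.16, 0.697 and 0.607 CPM at day 1 (log2 fold change 3.40 ± 0.77), and Cd14, a co-receptor for bacterial lipopolysaccharide, at 16.3, 24.3, 17.3 and 17.8 CPM and 45.5, 41.1 and 36.3 CPM (1.11 ± 0.25). All 7 neutrophil markers tested had log2 fold changes above 0 (0.25 to 2.78) and 0 were called (2 with an unadjusted p under 0.05), and 0 of the 6 B cell markers were called (2 with an unadjusted p under 0.05). The sums of 9 thymic epithelial, 7 endothelial and 8 fibroblast markers overlapped between steady state and day 1, at 1029.8 to 2179, 857 to 1121 and 30381 to 87715 CPM at day 1. In the same order they were 748 to 2659, 835 to 1230 and 19375 to 148462 CPM at steady state. The epithelial and fibroblast ranges at steady state were wide, so their overlap does not show an unchanged mixture. The part of a changing mixture of cells in the levels of the members was not tested.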

How the data were processed

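Bulk RNA-seq libraries of CD45- thymic stromal cells (13) were analysed. Reads were trimmed (Trimmomatic 0.38) and mapped to GRCm38.p5 (STAR 2.7.0e) by the authors, who deposited raw whole-number counts per gene made with featureCounts 1.6.3 at default settings (versions from the submitters' processing notes and the paper). The deposited exonic length of each gene, a value of another kind, was used for levels per kilobase. Symbols and positions came from GENCODE M21 (GRCm38), in which 53274 of 53379 identifiers had a symbol.

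All libraries entered 1 edgeR 4.0.16 fit (R 4.3.3) with a term for condition, TMM scaling, filterByExpr (minimum count 10, total 15) and quasi-likelihood F-tests, adjusted by Benjamini-Hochberg over all 19984 genes and called at an adjusted p of at most 0.05. The common dispersion was 0.177. CPM used TMM-scaled totals. Standard errors were derived from the log2 fold change and its quasi-likelihood F statistic. The fits were tested on simulated data.

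The members and all gene lists were chosen with earlier results of these data known. Values in every library are given for the 2 members per role group with the largest change at day 1, members called at day 4 or 7, and the 3 with the smallest day 1 change. Rsad2, Cmpk2, Phf11c, Pml and Sp100 were added after their values were seen. Steady-state columns carry no label replicate numbers and were used as a group. Alternatives were DESeq2 1.42.0, RLE scaling, other filters, fits of only the libraries compared, covariates, a replicate block and leaving out each library. Protein sequences were not used here, and some items are not reported here.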

Additional observations from a re-analysis of the deposited data

How the results depend on the processing

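At day 1 against steady state, 35 members were called, and 30 to 37 under all 21 alternatives (33 to 36 leaving out 1 library). At day 7 against day 1 the count of 37 ranged from 28 to 37 (34 to 37 leaving out 1 library). At day 4 against day 1 the count of 31 fell to 20 without day 4 replicate 3 and was otherwise within 1.5 times (20 to 33 leaving out 1 library). Counts near 0 moved more. At day 4 against steady state, 1 member was called, against 6 with DESeq2, 4 with no filter, 0 of 38 with at least 10 counts in every library, 2 with only the libraries compared, 0 with the tag family as a covariate, and 0 to 3 leaving out 1 library (3 without day 1 replicate 1, 2 without day 7 replicate 1). At day 7 against steady state, 0 became 2 with DESeq2, 1 with no filter, and 0 to 2 leaving out 1 library (1 without PBS day 4 replicate 2, 2 without day 7 replicate 1). At day 7 against day 4, 0 became 5 with DESeq2, 1 with no filter, 1 with the thymocyte score as a covariate, and 0 to 3 leaving out 1 library (2 without day 1 replicate 1, 3 without day 7 replicate 1). Epsti1 at day 4 reversed to a log2 fold change of 2.77 with the thymocyte score as a covariate (edgeR adjusted p = 0.00718). It was then the 1 member called at day 4 in place of Ube2l6, and was called lower at day 7 than at day 4 (adjusted p = 0.0258), where DESeq2 without the covariate called it higher. Because the score was lower in every day 4 library than in every steady-state library, this reversal is an extrapolation. Where counts changed, the cause was not tested.

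Deviations of same-numbered libraries of days 1, 4 and 7 from their group means correlated between -0.67 and 0.20. The division by tag described above also enters these values, and the steady-state libraries have no label numbers. The correlations therefore cannot show whether the numbers pair the libraries. With a replicate block, 32 members were called at day 1, 0 at day 4 and 0 at day 7 against steady state, 29 at day 4 and 35 at day 7 against day 1, and 0 at day 7 against day 4. With 3 or 4 libraries a group, differences at days 4 and 7 are hard to call. In data simulated for day 1 against steady state, true log2 fold changes of 1 and -1 were called in 2.5% and 0% of genes. Those of 2 and -2 were called in 42.5% and 47.4%, and those of 4 in 97.5%. The changed genes of that simulation were picked at random from all genes tested, so these shares are not those of the members. A member not called at day 4 or 7 may still have changed, by an amount limited by its own SE. For Isg15 at day 4 that SE was 0.29 on the log2 scale. The highest or lowest of the steady-state libraries stood apart by Dixon's criterion for 0 of 40 members.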
